A study of Mus musculus with 8 samples.

Results

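Mitochondrial ribosomal protein genes were examined in mouse calvarial osteoblast cultures treated with parathyroid hormone (PTH) or vehicle. The members are the genes whose symbol begins with Mrpl or Mrps and a number, and 82 of the 47706 rows of the count table met this rule. Of these, 77 are protein-coding genes and 5 are pseudogenes. By symbol, 50 belong to the large subunit and 32 to the small subunit. Edge cases of the naming were kept as the symbols give them: Mrps30 and Mrps18a encode proteins of the large subunit, and Mrps36 encodes a component of the 2-oxoglutarate dehydrogenase complex. The large-subunit gene Mrpl58 is listed under its older symbol Ict1, which the rule does not match, and was read with the other genes of mitochondrial translation.

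Calvarial osteoblasts are bone-forming cells isolated by collagenase digestion from the skullcaps of newborn mice. The cultures were differentiated for 7 days and then received PTH for 24 hours (4 samples) or vehicle for the same time (4 samples). Neither the strain nor the meaning of "Con", which stands in all 8 sample names, is given in the sources used here, and whether equally numbered cultures shared a cell preparation is not stated. The labels name adipogenic differentiation, whereas the study's methods describe an osteogenic medium followed by hours of low serum before the hormone was added. The 10 osteoblast markers summed to between 73270 and 106007 CPM (counts scaled to a common library size, by trimmed mean of M-values) in the 8 samples, and the 8 adipocyte markers to between 34.8 and 55.5 CPM, with Lep and Retn under 1 CPM throughout. Macrophage markers summed to 1025 to 1669 CPM in vehicle and 1601 to 2048 CPM in PTH samples (2 of 10 upregulated), chondrocyte markers to 319 to 336 and 372 to 490 CPM (2 of 5 upregulated), and endothelial markers to 6.41 to 7.26 and 6.03 to 7.65 CPM (1 upregulated and 1 downregulated of 5 tested), with Pecam1, Cdh5, Tie1 and Vwf under 1 CPM. Of the osteoblast markers 3 of 10 were downregulated, and of the adipocyte markers 1 of the 7 tested. For scale, 23.3% of all genes tested were upregulated and 22.5% downregulated. The part of these marker changes in the results was not tested. In bulk RNA, fewer cells of a type and less RNA per cell cannot be told apart. Tnfsf11, the RANKL gene that PTH is known to induce in osteoblasts, lay between 0.987 and 1.79 CPM in the vehicle samples and between 115 and 157 CPM in the PTH samples, so that every sample matched its label. Total counts ranged from 33605610 to 56090654 per sample.

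Mitochondria carry a ribosome of their own, which translates the few membrane proteins of oxidative phosphorylation that mitochondrial DNA encodes. Its ribosomal RNAs come from mitochondrial DNA, whereas all of its proteins are encoded in the nucleus, made in the cytosol and imported. Some of these proteins descend from those of the bacterial ribosome, and others were added in the mitochondrial lineage. The large subunit joins amino acids and holds the exit tunnel, and the small subunit binds the mRNA and reads its codons. Bone formation by osteoblasts draws on mitochondrial ATP, and PTH is a known regulator of osteoblast metabolism.

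The set moved in both directions after PTH treatment, by small amounts. Of the 81 members with enough counts to be tested, 27 were upregulated (33.3%), 9 were downregulated (11.1%) and 45 did not pass the test. Across all 16736 genes tested, 23.3% were upregulated and 22.5% were downregulated at the same threshold, a Benjamini-Hochberg adjusted p under 0.05 in edgeR's quasi-likelihood test. The median log2 fold change of the members was 0.15, against -0.00 for all genes, and no member reached a log2 fold change of 1 in either direction. The extremes were Mrpl33 at 0.82 and Mrpl45 at -0.77. In 15 of the 81 members all PTH samples lay above all vehicle samples, and in 8 they lay below them. Both shares are below those of all genes, of which 21.2% and 21.8% were separated in these ways. The pseudogene Mrps36-ps3 was at 0 counts in every sample, and 0 of the other 4 pseudogenes passed the edgeR test or DESeq2, while 2 of them had an unadjusted edgeR p under 0.05. In some of the alternative fits Mrpl48-ps, Mrps36-ps1 or Mrps36-ps2 was called. Members just outside the threshold were Mrpl40 (log2 fold change -0.26, adjusted p = 0.053), Mrpl11 (0.32, adjusted p = 0.057) and Mrps34 (0.28, adjusted p = 0.058).

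**Figure D1:**
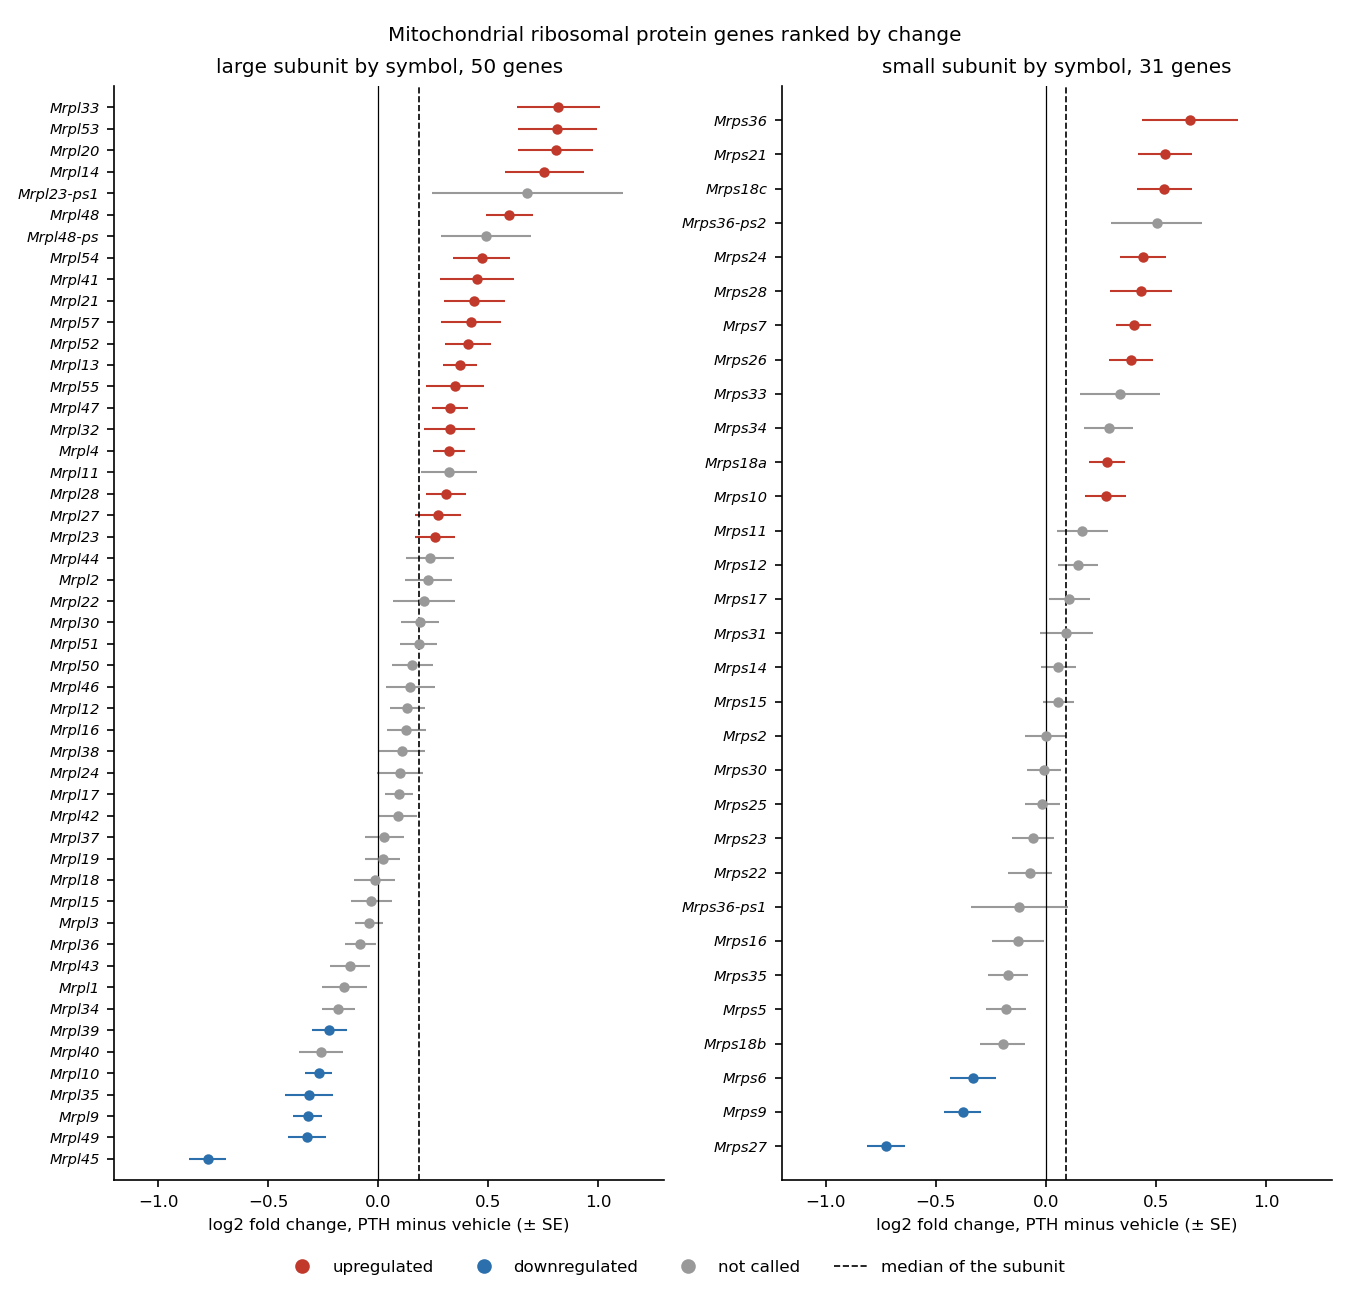
Log2 fold change (PTH minus vehicle, x axis) with its standard error for each of the 81 members tested, ranked within the large subunit (left, 50 genes) and the small subunit (right, 31 genes), with genes called at an adjusted p under 0.05 in color and the median of each subunit as a dashed line. The large subunit runs from -0.77 to 0.82 and the small subunit from -0.73 (Mrps27) to 0.65 (Mrps36).

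Large and small subunits were compared next. Of 50 large-subunit genes tested, 18 were upregulated (36.0%) and 6 downregulated (12%), with a median log2 fold change of 0.19. Of 31 small-subunit genes, 9 were upregulated (29.0%) and 3 downregulated (9.68%), with a median of 0.09. When Mrps30 and Mrps18a were counted with the large subunit and Mrps36 and the pseudogenes were left out, the counts were 19 up and 6 down of 50 and 7 up and 3 down of 26, with medians of 0.17 and 0.07. The quartiles were -0.03 and 0.37 for the large subunit and -0.10 and 0.36 for the small subunit. By origin, among the 47 genes with a bacterial homologue 18 were upregulated and 5 downregulated (median 0.15), and among the 27 specific to mitochondria 7 were upregulated and 4 downregulated (median 0.11).

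Summed over all members, the level was 1783 ± 74.0 CPM in vehicle samples and 2021 ± 190 CPM in PTH samples (SD, n = 4), with ranges of 1732 to 1892 and 1819 to 2206. The ranges overlapped, and the higher values of the PTH group were those of replicates 2 and 3 (2158 and 2206 CPM), with 1819 and 1902 CPM in replicates 1 and 4. As a share of all counts the members made up 0.186% ± 0.00751 in vehicle samples and 0.194% ± 0.0237 in PTH samples. The ratio of the summed CPM of the large subunit to that of the small subunit was 1.81, 1.86, 1.84 and 1.87 in vehicle replicates 1 to 4 and 1.93, 1.999, 1.96 and 1.88 in PTH replicates 1 to 4. The ranges of this ratio did not overlap, by a gap smaller than the spread within either group. It is a description over the chosen genes and was not tested.

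Core binding sequences of factors known for mitochondrial genes were looked for in the start regions of the members. Promoter windows of 68 members, from 250 bases before to 50 bases after the start, were taken from RefSeq (GRCm38.p6) and searched on both strands. The ETS core CCGGAAG, as bound by the factor of Gabpa, was in 24 of 68 windows (35.3%), against 17.1% of the windows of 10722 coding genes tested. The NRF1 core GCGCANGCG was in 16 (23.5%, against 13.2%), the YY1 core ATGGCGG in 13 (19.1%, against 7.92%), and the cAMP response element TGACGTCA, the letters bound by CREB, which acts downstream of the PTH receptor, in 2 (2.94%, against 3.15%). No motif contains another, and a match is a description of letters, not a bound site. The ETS core was in 11 of 23 windows of upregulated members, 1 of 9 of downregulated members and 12 of 36 of the others, and the NRF1 core was in 5 of 23, 5 of 9 and 6 of 36. By subunit the ETS core was in 14 of 42 large and 10 of 26 small windows and the NRF1 core in 12 of 42 and 4 of 26.

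Start regions are shown for the largest decrease of each subunit and for Mrpl9, Mrpl48 and Mrpl52, which have these cores outside annotated exons. They are chosen examples and show no relation of a core to the direction of change. Other members have an ETS or NRF1 core there too, among them Mrpl12, Mrpl22, Mrpl34 and Mrpl43, which did not pass the test. Mrpl33 and Mrpl20, among the largest increases, have neither core there. Each printed stretch is read 5′ to 3′ on the gene's strand, is limited to bases that no GENCODE M21 exon covers, and has the NRF1 or ETS core in capitals. GENCODE M21 extends Mrpl48 further upstream (chr7:100545751-100608301), so its stretch, before the RefSeq start, lies inside the annotated gene.
Mrpl45 (downregulated), chr11:97315566-97315715, plus strand, ending 1 base before the start, NRF1 core in capitals: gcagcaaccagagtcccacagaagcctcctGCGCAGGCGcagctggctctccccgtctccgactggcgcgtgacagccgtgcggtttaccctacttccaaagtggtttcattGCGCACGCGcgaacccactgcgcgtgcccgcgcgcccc
Mrpl9 (downregulated), chr3:94443186-94443317, plus strand, matches overlapping on both strands at its end, NRF1 core in capitals: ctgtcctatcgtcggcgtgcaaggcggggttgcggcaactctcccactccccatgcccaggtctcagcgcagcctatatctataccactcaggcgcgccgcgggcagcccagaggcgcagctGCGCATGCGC
Mrps27 (downregulated), chr13:99344706-99344785, plus strand, reaching to the exons of the divergent gene Ptcd2, ETS core in capitals: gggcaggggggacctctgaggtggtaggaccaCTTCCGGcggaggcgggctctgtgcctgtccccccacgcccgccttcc
Mrpl48 (upregulated), chr7:100583131-100583280, minus strand, ETS core in capitals: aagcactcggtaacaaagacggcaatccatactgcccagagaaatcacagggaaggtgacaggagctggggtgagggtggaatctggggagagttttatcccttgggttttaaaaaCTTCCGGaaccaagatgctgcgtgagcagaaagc
Mrpl52 (upregulated), chr14:54426759-54426908, plus strand, ETS core in capitals: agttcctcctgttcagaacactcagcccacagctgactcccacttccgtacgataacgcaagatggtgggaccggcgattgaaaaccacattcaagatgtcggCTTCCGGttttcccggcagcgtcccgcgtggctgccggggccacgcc

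The 2 largest decreases were 1 gene of each subunit, and both were tight across replicates. Mrpl45 (chr11:97315716-97329920, plus strand, GRCm38, 8 exons) encodes a mitochondrion-specific protein of the large subunit that sits at the exit tunnel and helps to attach the ribosome to the inner membrane. Its start region is the first of those printed above. It lay at 22.4, 24.8, 24.6 and 26.1 CPM in vehicle replicates 1 to 4 and at 15.3, 12.8, 14.0 and 15 CPM in PTH replicates 1 to 4. Every PTH sample was far below every vehicle sample. The log2 fold change was -0.77 ± 0.09 (SE, adjusted p = 1.5e-05), a level 0.584 times that of vehicle. Mrps27 (chr13:99344786-99415562, plus strand, 11 exons) encodes a pentatricopeptide repeat protein of the small subunit. Its values were 15.7, 16.0, 16.0 and 16.6 CPM in vehicle samples and 10.0, 10.5, 8.93 and 9.37 CPM in PTH samples. The groups were again separated (log2 fold change -0.73 ± 0.09, adjusted p = 2.7e-05). Exons of an annotated gene on the other strand cover 22.6% of the Mrps27 transcript.

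The other downregulated genes of the large subunit fell by smaller amounts. Mrpl10 encodes the protein at the base of the stalk, to which Mrpl12 binds. It lay at 42.4, 45.4, 40.8 and 41.8 CPM in vehicle samples and at 36.0, 35.9, 34.7 and 34.7 CPM in PTH samples (log2 fold change -0.27 ± 0.06, adjusted p = 0.0036). Mrpl9, which has a bacterial homologue, lay at 26.2, 25.8, 24.7 and 25.1 CPM and after PTH at 21.1, 20.2, 19.9 and 20.4 CPM (-0.32 ± 0.07, adjusted p = 0.0020). In both genes the PTH samples were all lower and varied little. Mrpl49, which is specific to mitochondria, lay at 18.3, 19.2, 17.2 and 19.3 CPM in vehicle samples and at 13.6, 13.9, 16.1 and 15.6 CPM in PTH samples (-0.32 ± 0.09, adjusted p = 0.0088), without overlap. Mrpl39, another mitochondrion-specific protein, lay at 18.3, 19.7, 19.3 and 20.1 CPM in vehicle and at 16.5, 15.5, 18.2 and 16.0 CPM in PTH samples (-0.22 ± 0.08, adjusted p = 0.039), with PTH replicate 3 just under the lowest vehicle sample. Mrpl35 lay at 16.9, 13.7, 17.2 and 15.7 CPM and after PTH at 14.8, 12.4, 11 and 12.8 CPM (-0.32 ± 0.11, adjusted p = 0.033). Here PTH replicate 1 was above vehicle replicate 2. The calls of Mrpl35 and Mrpl39 each held in 2 of the 8 fits that left out 1 sample, those without PTH replicate 1 or vehicle replicate 2 for Mrpl35 and those without PTH replicate 3 or vehicle replicate 1 for Mrpl39. Nearly the same sequence as part of Mrpl35 occurs in 10 other annotated genes.

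Besides Mrps27, 2 small-subunit genes were downregulated. Mrps9, with a bacterial homologue, lay at 14.0, 15.9, 15.8 and 15.1 CPM in vehicle samples and at 11.5, 11.3, 12.5 and 11.5 CPM in PTH samples (log2 fold change -0.38 ± 0.08, adjusted p = 0.0030), without overlap. Mrps6 lay at 37.5, 37.5, 38.5 and 34.8 CPM in vehicle and at 24.1, 32.2, 34.8 and 26.9 CPM in PTH samples (-0.33 ± 0.11, adjusted p = 0.023). PTH replicate 3 was level with vehicle replicate 4, and the call ended without PTH replicate 4 or vehicle replicate 3. Mrps6 shares 36.1% of its transcript with exons of other genes, among them the myo-inositol transporter gene Slc5a3, which lies in the same assembled locus. Slc5a3 fell from a mean of 64.4 CPM to 23.7 CPM (-1.44 on the log2 scale, adjusted p = 1.1e-07), and reads of the shared exon cannot be told apart by these counts.

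**Figure D2:**
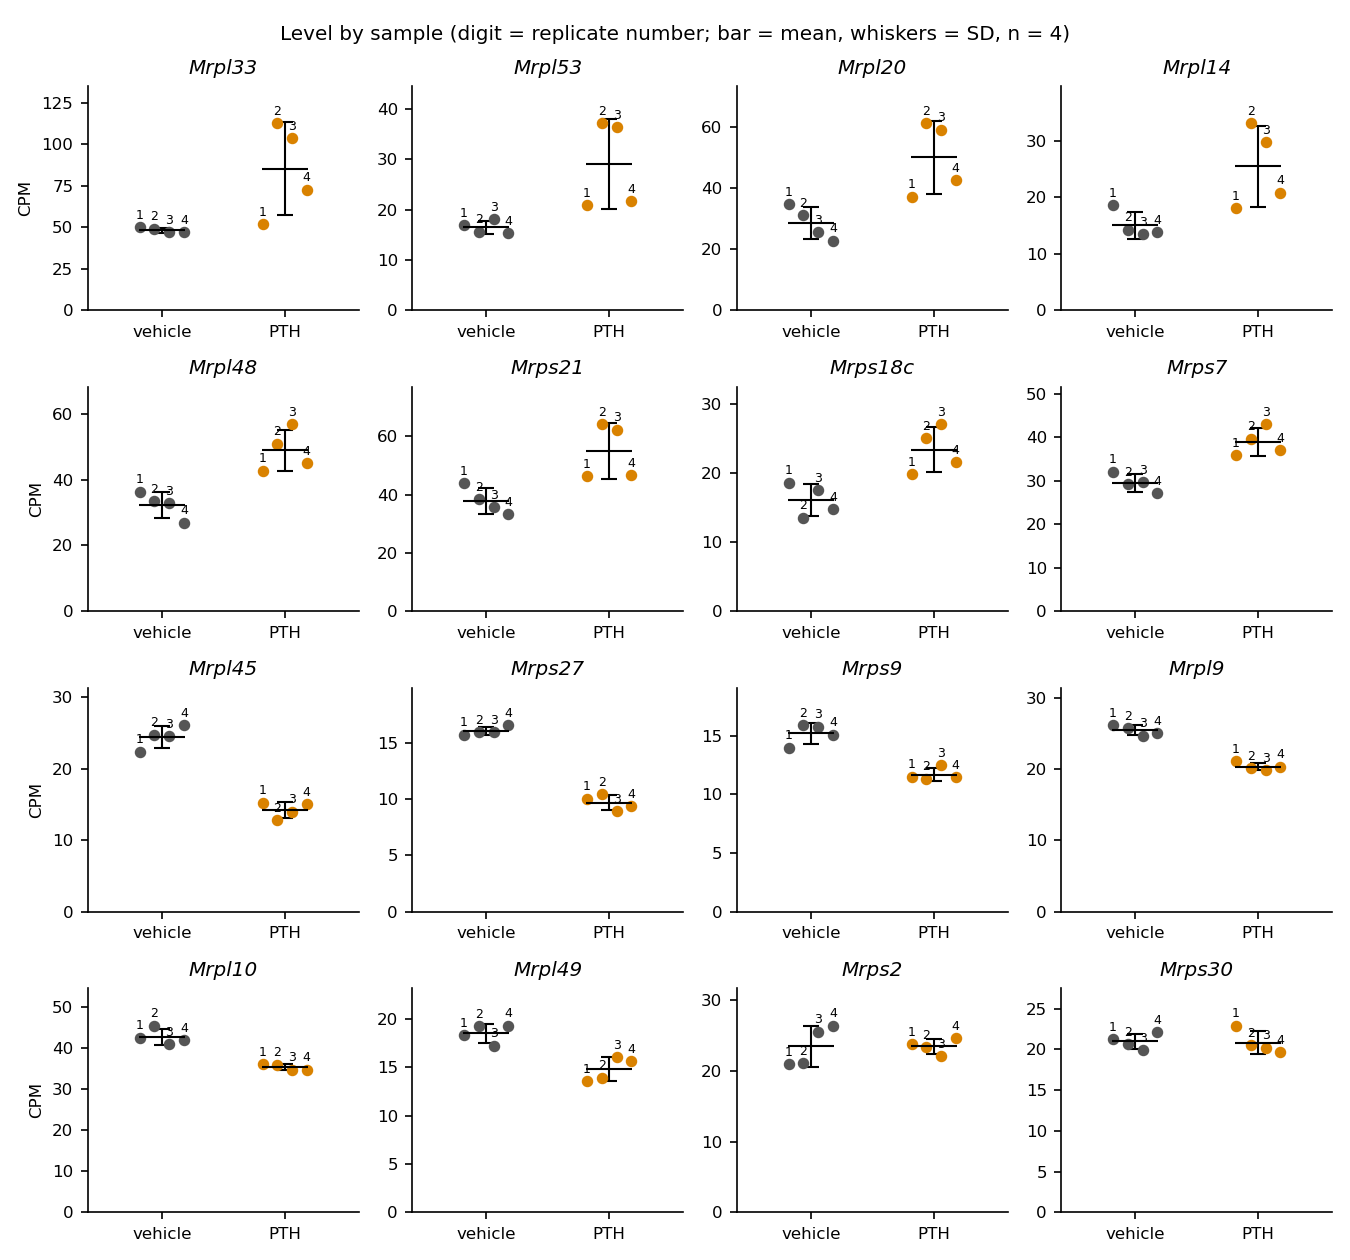
Level of 16 members in CPM (y axis from 0) in each vehicle and PTH sample, with the replicate number beside each point and the mean ± SD of the 4 samples. The first 8 panels are upregulated genes, in which PTH replicates 2 and 3 were mostly the highest samples, the next 6 are downregulated genes with all PTH samples below all vehicle samples, and Mrps2 and Mrps30 overlapped throughout.

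Upregulation was led by 4 short genes of the large subunit with log2 fold changes between 0.75 and 0.82. Mrpl33 lay at 50.1, 49.1, 46.9 and 47.0 CPM in vehicle samples and at 52.0, 113, 104 and 72.6 CPM in PTH samples (0.82 ± 0.19, adjusted p = 0.0036). Mrpl53 lay at 16.9, 15.6, 18.1 and 15.3 CPM in vehicle and at 20.9, 37.1, 36.4 and 21.7 CPM in PTH samples (0.81 ± 0.18, adjusted p = 0.0029). In both, every PTH sample exceeded every vehicle sample, but PTH replicate 1 did so by little and replicates 2 and 3 by much. Mrpl20, whose bacterial homologue acts early in assembly of the subunit, lay at 34.7, 31.2, 25.7 and 22.7 CPM in vehicle and at 37.3, 61.3, 59.2 and 42.5 CPM in PTH samples (0.81 ± 0.17, adjusted p = 0.0021). Mrpl14, at the face that meets the small subunit, lay at 18.6, 14.3, 13.5 and 13.9 CPM in vehicle and at 18.1, 33.1, 29.8 and 20.8 CPM in PTH samples (0.75 ± 0.18, adjusted p = 0.0046). PTH replicate 1 of Mrpl14 was below vehicle replicate 1. All of the Mrpl53 transcript lies within exons of other annotated genes, and 37.0% of Mrpl33 does, and reads there cannot be told apart by these counts.

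Mrpl48 and Mrpl54 completed the 6 largest called increases of the large subunit. Mrpl48 lay at 36.4, 33.4, 32.8 and 27.0 CPM in vehicle samples and at 42.8, 51.0, 57.0 and 45.2 CPM in PTH samples, without overlap (log2 fold change 0.60 ± 0.11, adjusted p = 0.00076). Mrpl54 lay at 30.4, 30.1, 24.2 and 23.6 CPM in vehicle and at 29.4, 38.5, 45.1 and 37.1 CPM in PTH samples, and its PTH replicate 1 fell within the vehicle range (0.47 ± 0.13, adjusted p = 0.010). Of the rest, Mrpl4, Mrpl13, Mrpl28, Mrpl47 and Mrpl52 were upregulated in every fit that left out 1 sample. Mrpl4 and Mrpl47 rose with little spread: Mrpl4 went from 31.5 ± 2.54 to 39.4 ± 1.02 CPM (0.32 ± 0.07, adjusted p = 0.0031), and Mrpl47 from 10.6 ± 0.368 to 13.3 ± 0.174 CPM (0.33 ± 0.08, adjusted p = 0.0057).

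In the small subunit the largest called increase carried the symbol Mrps36. Its values were 4.11, 3.42, 2.52 and 3.06 CPM in vehicle samples and 3.94, 5.78, 6.84 and 4.14 CPM in PTH samples (log2 fold change 0.65 ± 0.22, adjusted p = 0.026). PTH replicate 1 lay within the vehicle range, and 4 other annotated genes, 2 of them Mrps36 pseudogenes, hold nearly the same sequence. The call held in 4 of the 8 fits and ended without PTH replicate 2 or 3 or vehicle replicate 3 or 4. Mrps21 lay at 43.8, 38.3, 35.6 and 33.2 CPM in vehicle and at 46.4, 64.2, 62.3 and 46.7 CPM in PTH samples (0.54 ± 0.12, adjusted p = 0.0035). Mrps18c lay at 18.6, 13.5, 17.5 and 14.8 CPM in vehicle and at 19.8, 25.1, 27.1 and 21.6 CPM in PTH samples (0.54 ± 0.12, adjusted p = 0.0037). In Mrps21 and Mrps18c the groups did not overlap, and exons of another annotated gene on the same strand cover 27.3% of the Mrps18c transcript, where reads of the 2 genes cannot be told apart. Mrps24 lay at 23.1, 17.2, 20.5 and 20.7 CPM in vehicle and at 25.8, 29.8, 30.7 and 24.4 CPM in PTH samples (0.44 ± 0.11, adjusted p = 0.0048), also without overlap. Mrps7, which has a bacterial homologue in the head of the subunit, lay at 32.1, 29.2, 29.7 and 27.1 CPM in vehicle and at 35.9, 39.7, 43.1 and 37.0 CPM in PTH samples (0.40 ± 0.08, adjusted p = 0.0015). Every PTH sample of Mrps7 was above every vehicle sample, and its increase was the best determined of the subunit. Mrps28 lay at 19.8, 16.1, 14.7 and 13.7 CPM in vehicle and at 16.6, 21.9, 25.5 and 22.8 CPM in PTH samples, with overlap (0.43 ± 0.14, adjusted p = 0.026). Its call ended without PTH replicate 3 or 4 or any vehicle replicate but replicate 1.

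The 3 paralogues named Mrps18 encode different ribosomal positions, 1 of them in the large subunit. Mrps18c was upregulated, as given above. Mrps18a, of the large subunit, lay at 19.7, 17.2, 18.4 and 17.7 CPM in vehicle and at 21.6, 23.8, 22.6 and 20.4 CPM in PTH samples (log2 fold change 0.28 ± 0.08, adjusted p = 0.014), without overlap. Mrps18b lay at 12.9, 13.1, 16.0 and 13.1 CPM in vehicle and at 11.1, 11.7, 11.9 and 13.3 CPM in PTH samples (-0.20 ± 0.10, adjusted p = 0.14), and exons of an annotated gene on the other strand cover 59.1% of its transcript. A test of the difference between the paralogues was not made.

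Other members with known special roles did not pass the test. Mrpl12, the stalk protein that is also reported to bind the mitochondrial RNA polymerase, lay at 32.0, 30.4, 29.1 and 30.8 CPM in vehicle and at 29.8, 35.1, 37.0 and 32.3 CPM in PTH samples (log2 fold change 0.13 ± 0.08, adjusted p = 0.19). Mrps30, a large-subunit protein despite its name, lay at 21.3, 20.7, 19.9 and 22.1 CPM and after PTH at 22.9, 20.5, 20.2 and 19.7 CPM (-0.01 ± 0.08, adjusted p = 0.93). The groups of both genes overlapped. The members with the smallest log2 fold changes were Mrps2, Mrps30 and Mrps25 in the small subunit and Mrpl18, Mrpl19 and Mrpl37 in the large subunit, all between -0.02 and 0.03 with standard errors between 0.08 and 0.09. Mrps2 lay at 20.9, 21.01, 25.5 and 26.3 CPM in vehicle and at 23.8, 23.3, 22.1 and 24.6 CPM in PTH samples, and Mrpl37 at 29.9, 26.5, 25.7 and 29.5 CPM against 27.4, 32.7, 26.3 and 27.3 CPM. Mrps25, of which 75.6% lies opposite exons of Nr2c2, lay at 32.6, 29.2, 26.7 and 29.5 CPM against 30.0, 28.9, 30.9 and 26.8 CPM, Mrpl18 at 29.0, 24.3, 29.8 and 30.9 CPM against 25.8, 29.3, 31.4 and 26.5 CPM, and Mrpl19 at 17.1, 16.9, 15.4 and 17.1 CPM against 16.0, 17.0, 16.3 and 18.2 CPM. In each of these genes the ranges of the groups overlapped.

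The calls of 13 members did not hold in all 8 fits that left out 1 sample. Besides Mrpl35, Mrpl39, Mrps6, Mrps28 and Mrps36 these were 8 upregulated genes. Mrpl21 lay at 16.1, 12.3, 13.8 and 14.5 CPM in vehicle and at 17.0, 19.9, 24.6 and 15.4 CPM in PTH samples, and its call held in 5 fits. Mrpl32 (14.2, 11.9, 16.9 and 14.7 against 16.2, 20.6, 18.7 and 16.9 CPM), Mrpl41 (16.5, 15.5, 13.0 and 13.5 against 15.2, 26.4, 22.8 and 15.6 CPM) and Mrpl57 (22.8, 19.3, 19.6 and 18.8 against 21.3, 32.4, 31.7 and 22.8 CPM) were called in 3 fits each. Mrpl23 (22.5, 22.9, 23.2 and 21.2 against 24.2, 28.2, 31.1 and 24.2 CPM), Mrpl55 (12.5, 9.51, 8.95 and 9.01 against 11.2, 13.4, 14.6 and 11.7 CPM) and Mrps10 (22.4, 21.9, 23.0 and 20.9 against 22.9, 28.1, 30.7 and 24.98 CPM) were called in 2. Mrpl27 (19.8, 18.6, 21.7 and 20.9 against 20, 26.5, 27.5 and 24.0 CPM) was called in 1. In these 8 genes the highest values were all in PTH replicates 2 and 3, and every call ended without PTH replicate 3. All but that of Mrpl21 also ended without PTH replicate 2, and each ended without at least 2 of the vehicle replicates.

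This order of the samples was most common in the upregulated members. How often it occurs among all genes tested was not counted. In 24 of the 27 upregulated members PTH replicates 2 and 3 were the 2 highest PTH samples, compared with 1 of the 9 downregulated members and 18 of the 45 that did not pass. Both samples also had the highest share of counts in mitochondrially encoded mRNAs (2.57% and 1.89%, against 1.18% and 1.51% in PTH replicates 1 and 4 and 1.26% to 1.54% in vehicle samples) and in cytosolic ribosomal protein genes (3.15% and 3.28%, against 2.28% and 2.58% and 2.01% to 2.25%). The part of these differences in the increases of the members was not tested. Without PTH replicates 2 and 3, in a comparison added after the data were seen, 14 members were upregulated and 7 downregulated, and all of these had the same call with all samples.

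The length of the coding sequence went with the direction of change. Coding sequences of the 77 protein-coding members run from 195 bases (Mrpl33) to 1326 bases (Mrps30). Of the 24 members under 450 bases, 14 were upregulated and 1, Mrps6, was downregulated. Of the 20 members of 800 bases or more, 1 was upregulated, Mrpl4, and 4 were downregulated (Mrpl39, Mrpl45, Mrps9 and Mrps27). Between these bounds, 12 of 33 were upregulated and 4 downregulated. Median log2 fold changes were 0.34, 0.17 and -0.02 from the shortest to the longest class. All protein-coding genes tested showed the same order, with medians of 0.30, 0.08 and -0.07. Of these genes 43.7%, 28.8% and 20.8% were upregulated and 7.88%, 18.5% and 28.0% downregulated. Of the members 58.3%, 36.4% and 5% were upregulated and 4.17%, 12.1% and 20% downregulated. In each class the downregulated share of the members was below that of all coding genes, on counts of only 1, 4 and 4 members. The upregulated share was also below that of all coding genes in the longest class (5% against 20.8%), and above it in the other classes. Across the 77 members, coding length and log2 fold change had a Pearson r of -0.48 (with the length on the log2 scale) and a Spearman rho of -0.44. Across all 13863 protein-coding genes tested the values were -0.09 and -0.13. These genes are longer, with a median coding length of 1395 bases against 576 for the members. The correlations are therefore over unlike lengths, and their sizes cannot be compared directly. This is a relation across genes measured in the same 8 libraries, and genes are not independent replicates.

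**Figure D3:**
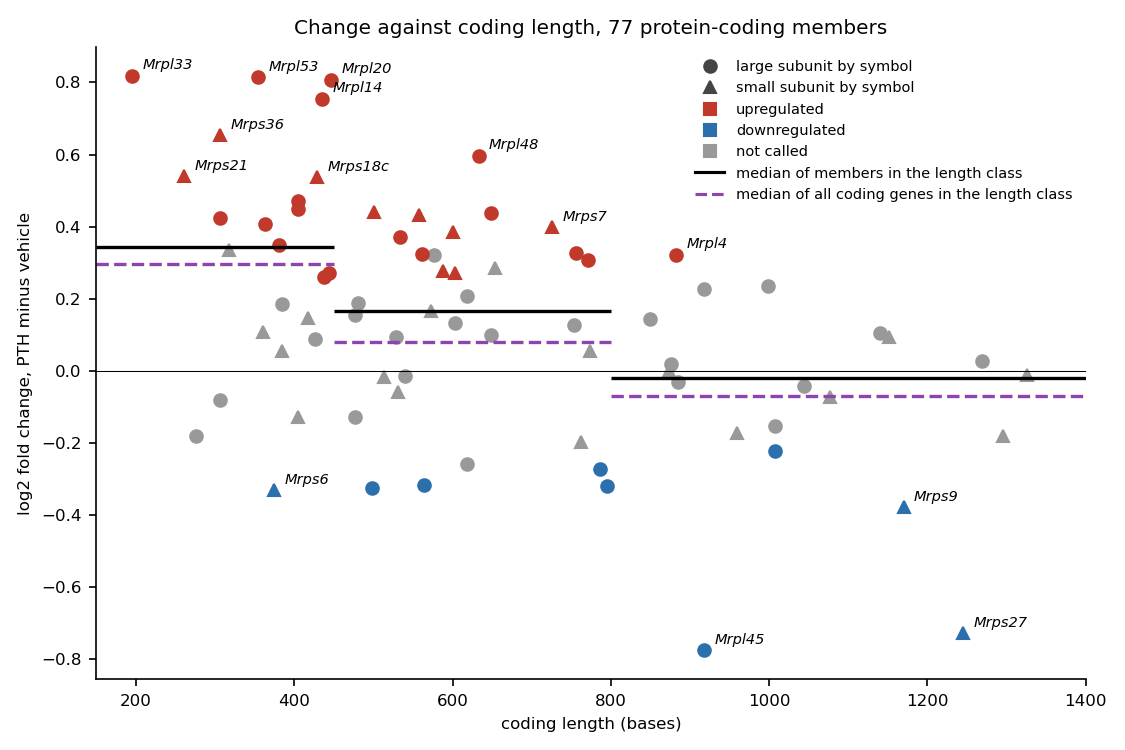
Log2 fold change (PTH minus vehicle, y axis) against coding length in bases (x axis) for the 77 protein-coding members, with circles for the large and triangles for the small subunit, colors for the calls, and horizontal lines for the median of the members (solid) and of all coding genes (dashed) in each length class. Upregulated members crowd below 800 bases, and the median of the members in each class (0.34, 0.17 and -0.02) lies close to that of all coding genes of that length (0.30, 0.08 and -0.07).

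The same pattern was read sample by sample, as the median over genes of the log2 CPM minus the gene's mean in vehicle samples. For the 24 shortest members it was 0.09, 0.44, 0.59 and 0.17 in PTH replicates 1 to 4 and lay between -0.09 and 0.16 in vehicle samples. For the 20 longest members it lay between -0.08 and -0.03 in PTH samples and between -0.02 and 0.04 in vehicle samples. The 965 coding genes under 450 bases gave 0.13, 0.38, 0.43 and 0.20 in PTH replicates 1 to 4. In vehicle samples these 965 genes lay between -0.04 and 0.08. The short members thus rose mainly in PTH replicates 2 and 3, as did short genes in general. For the short members PTH replicate 1 (0.09) was below vehicle replicate 1 (0.16), whereas for the 965 genes it was above (0.13 against 0.08).

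**Figure D4:**
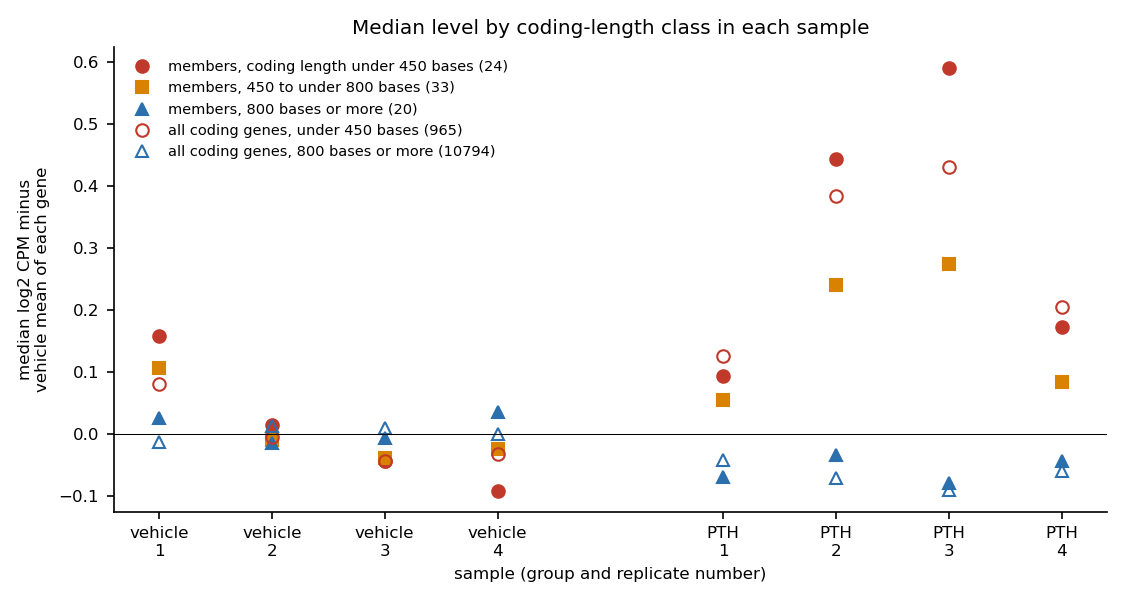
Median deviation of log2 CPM from each gene's vehicle mean (y axis) in the 4 vehicle and 4 PTH samples (x axis), for members in 3 classes of coding length (filled) and for all coding genes of the shortest and longest class (open). The short classes reach 0.44 and 0.59 for members and 0.38 and 0.43 for all genes in PTH replicates 2 and 3 and are at most 0.20 in the other samples.

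When each sample was adjusted for the relation of counts to transcript length across all genes, the members were compared with genes of like length. The large subunit then had 10 genes upregulated and 11 downregulated and the small subunit 2 and 6, with medians of -0.00 and -0.01, where 19.9% of all genes were upregulated and 24.7% downregulated. The pseudogene Mrps36-ps1 is counted among the downregulated genes of the small subunit here. With coding length in place of transcript length, added after the data were seen, the counts were 8 and 10 and 4 and 9, against 21.1% and 24.5% of all genes. The 9 downregulated members were downregulated under both adjustments, and 9 of the 27 upregulated members kept their call under both: Mrpl4, Mrpl13, Mrpl14, Mrpl20, Mrpl47, Mrpl48, Mrpl53, Mrps7 and Mrps26. These 9, together with Mrpl9, Mrpl10, Mrpl45, Mrpl49, Mrps9 and Mrps27 among the downregulated genes, had the same call in every fit that was run. The counts kept in each direction are not a like measure of stability. The coding length adjustment lowered the log2 fold changes of all 9 downregulated members, a shift that favors a downregulated call. It was largest in Mrps6 (-0.33 to -0.64) and least in Mrps27 (-0.728 to -0.729). Nearly the same sequence as part of Mrps26 occurs in 92 other annotated genes. Exons of Mtbp cover 27.0% of the Mrpl13 transcript, and those of other genes all of Mrpl53, as given above. Mrpl33, with the largest log2 fold change and the shortest coding sequence, fell to 0.31 with transcript length (adjusted p = 0.061) and 0.26 with coding length (adjusted p = 0.074).

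The genes around the mitochondrial ribosome were read from lists in the same fit. Of 6 further ribosomal proteins that carry other symbols, Chchd1 was upregulated, from 27.4, 22.6, 21.8 and 21.4 CPM to 24.5, 44.9, 51.8 and 35.4 CPM (0.75 ± 0.19, adjusted p = 0.0059), with PTH replicate 1 inside the vehicle range. The peptide-releasing large-subunit protein listed as Ict1 lay at 21.6, 21.5, 20.99 and 19.7 CPM in vehicle and at 20.1, 21.6, 24.7 and 20.5 CPM in PTH samples (0.05 ± 0.08, adjusted p = 0.64). Dap3, Ptcd3, Aurkaip1 and Gadd45gip1 did not pass the test either.

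Factors that act on the translating ribosome were read next. Of 12 mitochondrial translation factors 8 were downregulated (66.7%, against 22.5% of all genes) and 4 did not pass, with a median log2 fold change of -0.32. Among them were the initiation factors Mtif2 (22.2 to 14.7 CPM, -0.60, adjusted p = 0.0016) and Mtif3, the elongation factors Tufm and Tsfm, the recycling factor Mrrf, and Taco1, the translational activator of the cytochrome c oxidase subunit mt-Co1, which had the largest decrease (7.05, 9.53, 7.20 and 7.80 CPM in vehicle, 4.33, 5.27, 3.81 and 3.73 CPM in PTH samples, -0.88 ± 0.15, adjusted p = 0.00055). Of 22 genes that charge mitochondrial tRNAs, 6 were downregulated (27.3%, near the 22.5% of all genes) and 16 did not pass, with a median of -0.15. The largest decrease among those called was that of the prolyl-tRNA synthetase Pars2, from 3.79, 2.85, 2.63 and 3.51 CPM to 1.27, 2.20, 1.62 and 2.16 CPM (-0.82 ± 0.23, adjusted p = 0.011).

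Of 28 genes for assembly and rRNA modification 6 were upregulated (21.4%) and 8 downregulated (28.6%), with a median of -0.18, shares near the 23.3% and 22.5% of all genes tested. The upregulated genes included Malsu1, an assembly factor that binds the protein of Mrpl14 (14.7 to 25.8 CPM, 0.81 on the log2 scale, adjusted p = 0.00025), Nsun4, Mterf4, which acts with Nsun4 on the ribosomal RNA, and the ribose methyltransferase Mrm1 (7.99 to 15.7 CPM, 0.97, adjusted p = 2.2e-05). The largest increase carried the symbol Trmt61b, which is counted among the 6. Its symbol is that of a mitochondrial RNA methyltransferase, but GENCODE M21 lists this mouse gene as a non-coding antisense transcript without a coding sequence. It rose from 2.68, 2.76, 2.77 and 2.76 CPM to 59.2, 63.5, 67.8 and 57.2 CPM (4.49 ± 0.09, adjusted p = 5.4e-12), and as the use of strand in the counting is not given, reads of the genes on either strand cannot be told apart. The dimethyltransferase gene Tfb1m, whose product modifies the small-subunit rRNA, fell most, from 5.71, 4.06, 5.49 and 4.86 CPM to 1.35, 2.29, 2.58 and 2.31 CPM (-1.25 ± 0.22, adjusted p = 0.00053). The calls of Tufm, Tsfm and Mterf4 held in 3 or 4 of the 8 fits that left out 1 sample, and samples of both groups were among those whose omission ended them. Over the 68 genes of these 4 lists 7 were upregulated and 22 downregulated, with a median of -0.16, against 27 and 9 of the 81 members. The median coding length of these 68 genes was 1324.5 bases, against 576 bases for the protein-coding members. With the transcript length adjustment the counts were 5 up and 24 down for these genes and 12 up and 17 down for the members.

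**Figure D5:**
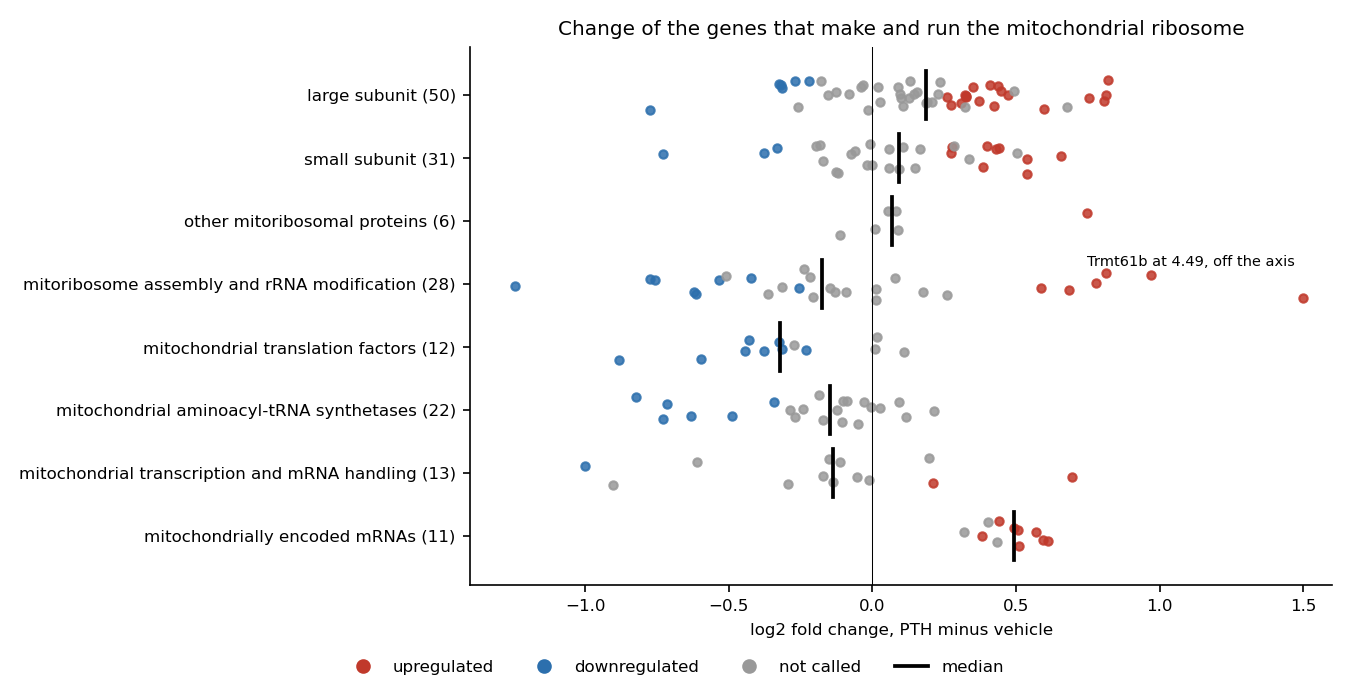
Log2 fold change (PTH minus vehicle, x axis) of the members by subunit and of 6 lists of other genes of mitochondrial gene expression (number of genes tested in parentheses), with 1 point per gene, colors for the calls and a bar at the median. The medians of both subunits (0.19 and 0.09) lie above 0, those of assembly, translation factors, tRNA synthetases and mitochondrial transcription lie between -0.32 and -0.14, and that of the mitochondrially encoded mRNAs is 0.49.

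The products and the upstream regulators were read in the same way. Of 13 genes for mitochondrial transcription and mRNA handling, 2 were upregulated, Slirp (25.3, 23.2, 19.5 and 21.1 CPM in vehicle, 27.4, 47.9, 36.6 and 32.4 CPM in PTH samples, 0.70 ± 0.15, adjusted p = 0.0023) and its partner Lrpprc, and 1 was downregulated, Mterf2 (3.86, 5.14, 6.36 and 5.97 CPM against 2.20, 4.002, 2.40 and 2.12 CPM, -1.002, adjusted p = 0.0040). Tfam and Polrmt did not pass. Of this list 15.4% was upregulated and 7.69% downregulated, below the 23.3% and 22.5% of all genes tested. Of the 13 mRNAs of mitochondrial DNA 11 were tested, 8 were upregulated (72.7% of those tested, and 5 genes with DESeq2) and 3 did not pass, with a median of 0.49. mt-Atp6 rose most, from 280, 227, 307 and 255 CPM to 292, 594, 454 and 295 CPM (0.61 ± 0.20, adjusted p = 0.025), and here too replicates 2 and 3 were the high samples while replicates 1 and 4 overlapped with vehicle. The call of mt-Atp6 ended without PTH replicate 2 or 3 or vehicle replicate 2 or 4. Among 10 regulators of nuclear genes for mitochondrial proteins, the coactivator genes Ppargc1a (3.12 to 13.4 CPM, log2 fold change 2.09, adjusted p = 1.8e-07) and Ppargc1b (0.736, 0.895, 0.355 and 0.887 CPM in vehicle, 4.37, 5.12, 6.63 and 5.28 CPM in PTH samples, 2.89, adjusted p = 3.9e-06) and Myc were upregulated, Gabpb1 was upregulated by 0.21 on the log2 scale, and Gabpa was downregulated (88.5, 86.6, 83.7 and 76.0 CPM against 66.6, 55.6, 59.0 and 63.8 CPM, -0.45, adjusted p = 0.00042). Nrf1, Yy1 and Esrra did not pass, and the calls of Lrpprc and Gabpb1 held in 2 of the 8 fits that left out 1 sample. Of the 10 regulators 40% were upregulated and 10% downregulated.

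Other gene sets rich in short genes gave the scale of the members' change. Of 87 cytosolic ribosomal protein genes 82 were upregulated and 5 did not pass, with a median log2 fold change of 0.62 and a median coding length of 453 bases. Of 36 genes for complex I subunits 28 were upregulated and 8 did not pass, with medians of 0.44 and 434 bases. For the protein-coding members the medians were 0.15 and 576 bases.

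Many members start back to back with another gene. Of the 77 protein-coding members 22 (28.6%) had the start of a gene on the other strand within 1000 bases upstream, against 9.93% of 13863 protein-coding genes tested. Mrps11 and Mrpl46, a small-subunit and a large-subunit gene, start from opposite strands with 41 bases between their RefSeq starts, of which these 29 lie outside annotated exons and hold none of the 4 motifs.
Mrps11 and Mrpl46, chr7:78783090-78783118, plus strand: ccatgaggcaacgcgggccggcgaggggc
Mrps11 lay at 13.4, 13.5, 10.6 and 11.6 CPM in vehicle and at 12.2, 15.9, 14.5 and 12.6 CPM in PTH samples (log2 fold change 0.17 ± 0.12, adjusted p = 0.27), and Mrpl46 at 8.01, 7.71, 7.78 and 8.81 CPM against 10.1, 8.55, 9.24 and 7.82 CPM (0.15 ± 0.11, adjusted p = 0.32). Neither passed the test, and the estimates were close. Of 21 partners tested 4 were upregulated and 5 downregulated, and of the 22 members 6 and 3. Across all genes tested 23.3% were upregulated and 22.5% downregulated. Called beside a member that did not pass were Ppp1r10 and Eme2 (up) and Mitd1, Cyb5rl, Hira and Ncapd2 (down). In 3 of the pairs both genes were called, 2 of them in the same direction. Whether this exceeds the count for other pairs of genes was not tested. Mrpl32 and the proteasome subunit gene Psma2, 75 bases apart, both rose (Psma2 by 0.31 on the log2 scale, adjusted p = 0.0026). Mrps27 and its divergent neighbor Ptcd2 both fell (13.8 to 10.7 CPM for Ptcd2, -0.37, adjusted p = 0.021). Mrpl49 fell while Fau, a gene for a cytosolic ribosomal protein 182 bases away, rose from 252 to 390 CPM (0.63, adjusted p = 0.00067).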

How the data were processed

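RNA-seq counts from 4 vehicle and 4 PTH cultures were analysed. Per the study's methods and the submitters' processing notes, poly(A) libraries were sequenced as pairs of 150-base reads, aligned to mm10 (GRCm38) with HISAT2, and assembled with StringTie, and the deposited counts were derived by the authors from StringTie coverage with a companion script. Such counts scale with the read length given to the script, whose default is 75 bases, and the value used, the annotation version and the use of strand are not given in the sources used here. All columns of per-sample values were used.

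Counts were tested as deposited with edgeR 4.0.16 in R 4.3.3 (trimmed-mean normalization, low counts removed by filterByExpr at count and total minimums of 10 and 15, two-sided quasi-likelihood test, Benjamini-Hochberg adjustment over 16736 genes). Every adjusted p in the text is from this test unless another is named. Where a symbol had several rows, the row with the highest mean count was used. Nothing in the sources says that the samples came from separate animals, so p-values measure the spread between these samples. The least count of a protein-coding member in any sample was 121.

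Gene structure was read from GENCODE M21, shared exons were found by position and similar sequences with blastn 2.17.0 (at least 150 aligned bases at 95% identity), and promoter windows came from RefSeq (GRCm38.p6), which matched 68 of the 82 members. Length and GC offsets were lowess fits of each sample against all genes. DESeq2 1.42.0 was run as an alternative. The other alternatives were edgeR fits with DESeq2 size factors, no filter, a replicate block, each sample left out, counts halved, counts summed by symbol, and length and GC offsets. The fit was tested on simulated counts. The coding-length offset and the fit without PTH replicates 2 and 3 were added after the data were seen.

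Values in every sample are given for each downregulated member, for the 6 upregulated members with the largest and the 3 members with the smallest absolute change in each subunit, for members with known special roles, for those whose call ended without 1 sample, and for the called member with the largest change each way in the other lists. Mrps11, Mrpl46 and the genes beside members were named after their values were seen. The members and lists were chosen with earlier results of these data known.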

Additional observations from a re-analysis of the deposited data

Results flagged for a closer look

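In 8 of 162 groups of 4 samples, 1 for each tested member and condition, a single sample stood apart from the other 3 by Dixon's criterion (its gap to the nearest of them, as a share of the range, exceeded the 95% critical value). Chance flags about 1 in 20 such groups. Vehicle replicate 1 was high for Mrpl14 (18.6 CPM, others 13.5 to 14.3), Mrpl55 (12.5 CPM, others 8.95 to 9.51) and Mrps5 (23.5 CPM, others 19.4 to 19.9). Vehicle replicate 3 was low for Mrpl19 (15.4 CPM, others 16.9 to 17.1) and high for Mrps18b (16 CPM, others 12.9 to 13.1). PTH replicate 3 was high for Mrpl42 (33 CPM, others 26.7 to 26.9) and for Mrps9 (12.5 CPM, others 11.3 to 11.5). PTH replicate 1 was low for Mrpl47 (13.1 CPM), with the other 3 samples at 13.4 CPM.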

How the results depend on the processing

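When single samples were left out, the members called numbered 17 to 33 upregulated and 6 to 9 downregulated, 11 to 21 and 4 to 6 in the large subunit and 6 to 12 and 2 to 3 in the small subunit. The lowest upregulated count, 17 with 11 in the large subunit, was that without PTH replicate 3, and the highest, 33, that without PTH replicate 1. That highest count includes the pseudogenes Mrpl48-ps and Mrps36-ps2. The upregulated count without vehicle replicate 1 includes Mrps36-ps2, and that without vehicle replicate 2 includes Mrpl48-ps. The downregulated count with the transcript length offset, given below, includes the pseudogene Mrps36-ps1. Without PTH replicates 2 and 3 the counts were 14 up and 7 down, 9 and 4 in the large and 5 and 3 in the small subunit, with fewer samples. With the transcript length offset they were 12 up and 17 down, 10 and 11 in the large subunit and 2 and 6 in the small, and the median log2 fold change of large subunit genes was -0.00115 and that of small subunit genes -0.010. With the coding length offset they were 12 up and 19 down, 8 and 10 in the large subunit (median 0.037) and 4 and 9 in the small (median -0.040). Members whose log2 fold change turned sign, with a call in at least 1 of the fits compared, were Mrpl23 (-0.11), Mrpl27 (-0.072), Mrpl42 (-0.29), Mrpl52 (-0.11) and Mrps15 (-0.20) with the transcript length offset and Mrps14 (-0.24) and Mrps17 (-0.21) with the coding length offset, where the log2 fold change under the offset is given. The cause of these shifts was not tested.

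The replicate numbers are no evidence of pairing, since the deviations of equally numbered vehicle and PTH samples had correlations of -0.041 to 0.027. With the replicate block the counts were 21 up and 8 down, 14 and 5 in the large and 7 and 3 in the small subunit. The other settings (DESeq2, DESeq2 size factors, no filter, halved counts, counts summed by symbol, the GC offset) gave 21 to 29 up and 8 to 10 down. Over the comparisons, 179 values under an alternative stayed close to the reported ones and the 21 that moved are among those above.

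The precision rests on 4 samples a group, and every protein-coding member had at least 121 counts in every sample. Which of the reads of a shared exon belong to a member was not tested.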
